A study of Mus musculus with 6 samples.

Results

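The chemokine ligand genes on a 770-gene NanoString panel were followed in whole mouse brain. NanoString assays tally single probe molecules bound to RNA by their fluorescent barcodes, with no amplification step. The 9 ligands were Ccl2, Ccl3, Ccl4, Ccl5, Ccl7, Cxcl9, Cxcl10, Xcl1 and Cx3cl1, and all 9 were measured. They were listed by name, with earlier results of these data known. Brains came from 3 SOD1-G85R transgenic mouse samples and 3 wild-type (WT) samples. The transgene carries the G85R mutant of SOD1, a familial amyotrophic lateral sclerosis allele of superoxide dismutase. Both groups had a C57BL/6 background, were labelled day 10 and received no treatment. The labels do not say what the days count from, what drives the transgene or whether every replicate was its own animal. The p-values therefore reflect sample-to-sample spread, part of which may be technical. The transgene itself was not analysed here.

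Chemokines are small secreted proteins that guide cells along concentration gradients by binding G protein-coupled receptors. They are named by the spacing of their first cysteines (CC, CXC, C and CX3C). Most are scarce in healthy brain and are induced by interferons, TNF and NF-kB signalling in glia, endothelium and incoming leukocytes, whereas Cx3cl1 (fractalkine) is made by neurons in the resting brain, is anchored in their membrane and acts on Cx3cr1 of microglia. In the RefSeq annotation, Ccl2 and Ccl7 are direct neighbours on chromosome 11, Ccl3 and Ccl4 are neighbours with overlapping annotations, and Cxcl9 and Cxcl10 are separated by 1 protein-coding gene on chromosome 5.

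Values are normalized counts as deposited. Each sample had a lowest value shared by many genes, here called its floor, and a value at the floor is only an upper limit. Floors were 7.85 to 11.4 in SOD1-G85R and 8.05 to 13.4 in WT. Low values were whole multiples of 1 step per sample, so dividing by it gave implied counts, with implied totals of 468718 to 1022668 in SOD1-G85R and 689755 to 970312 in WT. SOD1-G85R replicate 2 stood apart from the rest, its log2 profile correlating at 0.828 to 0.841 with the other 5 samples, which correlated at 0.961 to 0.986 with each other. These correlations are across genes, which are not independent replicates. It was also the SOD1-G85R sample with signal for the Y-linked genes Uty and Kdm5d, at 466 and 242. WT replicates 1 and 2 had such signal too, with Uty at 684 and 478. The ligands' fold changes, and the counts from the gene lists, are therefore given with and without SOD1-G85R replicate 2. Leaving it out keeps SOD1-G85R replicates 1 and 3, both at the floor for Uty and Kdm5d. They are then set against a WT group whose replicates 1 and 2 have Y-linked signal. The part of sex in the differences, with or without that sample, was not tested. Brain markers were abundant in every sample. Neuron markers (6 genes) summed to 23435 to 29215 in SOD1-G85R and 27653 to 32146 in WT, and astrocyte markers (4 genes) to 14526 to 14993 in SOD1-G85R and 12485 to 19769 in WT.

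Upstream sequences are shown for the interferon-induced pair Cxcl10 and Cxcl9, which were both high in SOD1-G85R replicate 2, and for Cx3cl1, which was not. Each is the 250 bases before the RefSeq start site in GRCm38.p6, read 5′ to 3′ in the direction of transcription. Capitals mark matches to any of 4 motifs searched on both strands: the interferon-stimulated response element core (GAAA, any 2 bases, GAAA), the STAT site TTCNNNGAA, the AP-1 site TGAGTCA and the kappaB site of NF-kB. The kappaB letters were GGGRNNYYCC, where R is A or G, Y is C or T and N is any base.
Cxcl10, chr5:92348890-92349139, minus strand: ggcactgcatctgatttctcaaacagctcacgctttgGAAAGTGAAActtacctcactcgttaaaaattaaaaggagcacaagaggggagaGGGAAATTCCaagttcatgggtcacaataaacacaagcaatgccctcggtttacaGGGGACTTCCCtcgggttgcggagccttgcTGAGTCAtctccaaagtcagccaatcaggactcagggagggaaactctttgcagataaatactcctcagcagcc
Cxcl9, chr5:92328080-92328329, minus strand: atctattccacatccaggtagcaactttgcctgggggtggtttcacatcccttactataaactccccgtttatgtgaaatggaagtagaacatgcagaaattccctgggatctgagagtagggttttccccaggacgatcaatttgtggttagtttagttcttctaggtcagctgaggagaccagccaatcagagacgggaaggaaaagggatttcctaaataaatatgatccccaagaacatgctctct
Cx3cl1, chr8:94771930-94772179, plus strand: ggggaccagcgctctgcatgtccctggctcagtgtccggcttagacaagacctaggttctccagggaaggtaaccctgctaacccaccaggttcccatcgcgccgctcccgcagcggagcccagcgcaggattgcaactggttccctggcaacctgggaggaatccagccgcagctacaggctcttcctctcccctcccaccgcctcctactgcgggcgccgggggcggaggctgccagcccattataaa
The Cxcl10 window held 1 interferon element core, 213 to 204 bases before the start, 3 kappaB matches and 1 AP-1 match. The kappaB matches lay 159 to 150, 104 to 95 and 103 to 94 bases before the start, and the last 2 overlap each other. No match to the STAT letters was found in it. The windows of Cxcl9 and Cx3cl1 held no match to any of the 4 motifs, and neither did those of Xcl1 and Ccl3, the other ligands with an entry, so 5 of the 9 ligands were matched to a sequence. Among all 32851 windows of this length, the interferon element core was found in 2.98%, the kappaB site in 7.25%, the STAT site in 7.02% and the AP-1 site in 4.46%. A match describes the letters only, and a stretch that differed from a motif by 1 base was not counted.

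Of the 8 ligands other than Cx3cl1, called inflammatory ligands here, 7 had their highest normalized count in the same sample, SOD1-G85R replicate 2. Xcl1 was the exception, though in implied counts it too was highest there. Cx3cl1 was lower in all 3 SOD1-G85R samples than in any WT sample. Summed over the 8 ligands, the signal was 154, 12354 and 289 normalized counts in SOD1-G85R replicates 1, 2 and 3, against 101, 148 and 127 in WT replicates 1, 2 and 3. In SOD1-G85R replicate 2, 7 of the 8 exceeded all 5 other samples, where 46.4% of all 770 genes did so. By over 4 times the highest other sample, 5 of the 8 did so (Ccl2, Ccl5, Ccl7, Cxcl9 and Cxcl10), against 10.5% of the panel. Ccl5 and Cxcl10 had the largest such ratios of all 770 genes, at least 395 for Ccl5, whose highest other value was the floor of WT replicate 2, and 143 for Cxcl10.

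**Figure D1:**
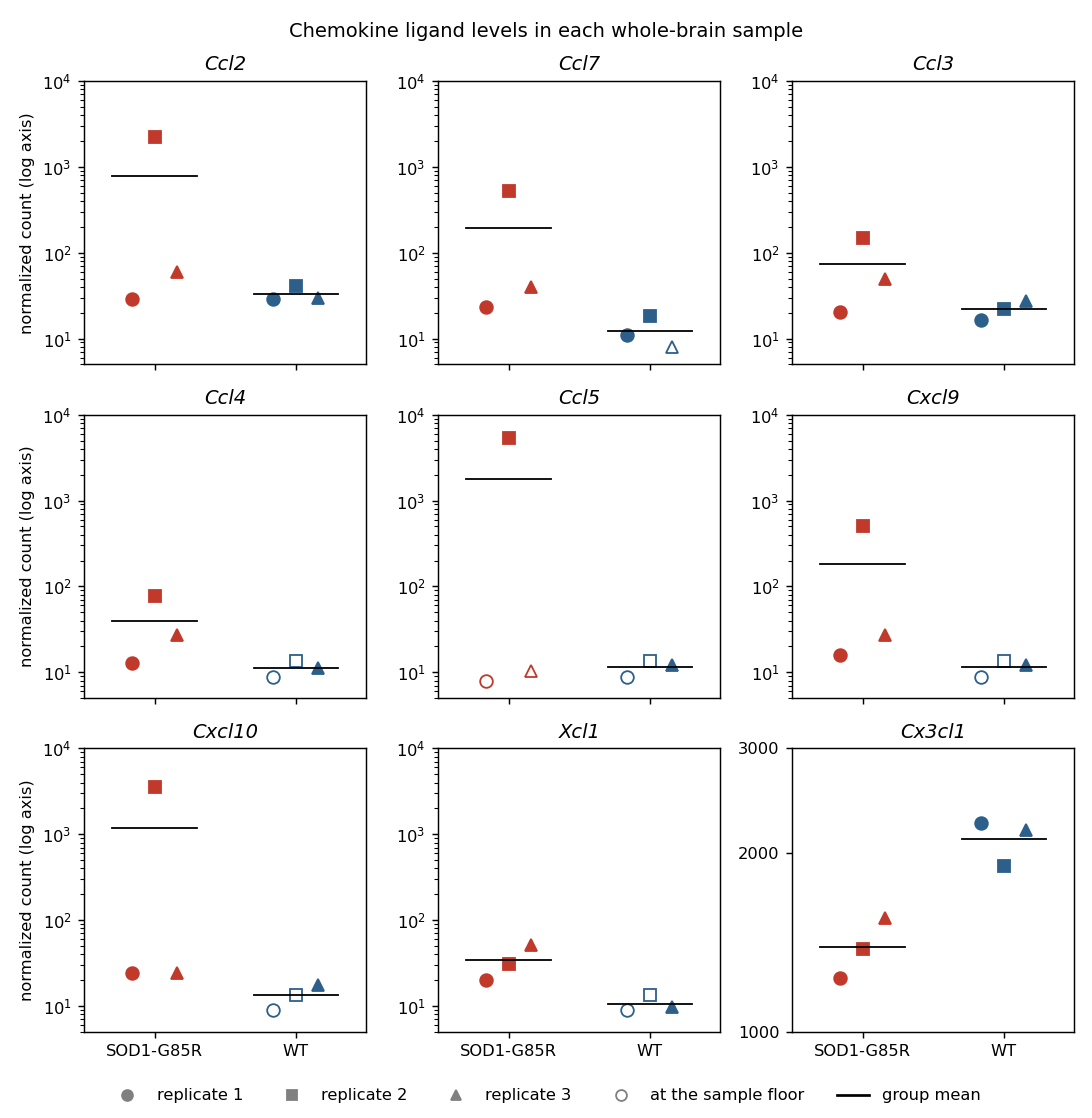
Normalized counts of the 9 ligands in each sample, on log axes, with SOD1-G85R samples in red and WT samples in blue; open symbols are values at the sample floor and lines are group means of 3 samples. The square of SOD1-G85R replicate 2 sits far above the other samples for Ccl2, Ccl5, Ccl7, Cxcl9 and Cxcl10, while Cx3cl1, on a narrower axis, is lower in all 3 SOD1-G85R samples.

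Ccl2 and Ccl7 are ligands of Ccr2 and draw monocytes out of the blood. Ccl2 had 28.8, 2257 and 59.7 normalized counts in SOD1-G85R replicates 1, 2 and 3, against 29.3, 41.2 and 29.6 in WT replicates 1, 2 and 3. The groups overlapped, because SOD1-G85R replicate 1 lay below every WT sample. Ccl7 had 23.4, 522 and 39.8 in the SOD1-G85R samples, against 11.1, 18.1 and the floor of 8.05 in the WT samples. All 3 SOD1-G85R samples thus exceeded WT for Ccl7, and they also did in implied counts, with 22, 656 and 28 in SOD1-G85R against 14, 18 and at most 10.1 in WT. In SOD1-G85R replicate 2 the level was 67.7-fold the WT mean for Ccl2 and at least 42.1-fold for Ccl7.

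Ccl3, Ccl4 and Ccl5 are CC ligands that act on macrophages, microglia and T cells. Ccl3 had 20.2, 149 and 49.7 in SOD1-G85R replicates 1, 2 and 3, against 16.6, 22.1 and 27.2 in WT replicates 1, 2 and 3. Ccl4 had 12.8, 78.0 and 27.0 in the SOD1-G85R samples, against the floors of 8.87 and 13.4 and a value of 11.2 in the WT samples. For both, SOD1-G85R replicates 2 and 3 exceeded WT and replicate 1 lay within its range. Ccl5 was at the floors of 7.85 and 10.2 in SOD1-G85R replicates 1 and 3 and at 5298 in replicate 2, against the floors of 8.87 and 13.4 and a value of 11.99 in WT. Ccl5 was thus high in 1 of the 6 samples, at an implied count of 6654 (exact Poisson 95% interval 6495 to 6816, counting error only), at least 464-fold the WT mean. The corresponding level in SOD1-G85R replicate 2 was 6.78-fold the WT mean for Ccl3 and at least 6.996-fold for Ccl4.

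Cxcl9 and Cxcl10 are interferon-induced ligands of Cxcr3, which draw activated T cells and natural killer cells. Cxcl10, whose upstream window held the interferon element core and kappaB matches shown above, had 24.5, 3511 and 24.2 in SOD1-G85R replicates 1, 2 and 3, against the floors of 8.87 and 13.4 and a value of 17.6 in WT. Cxcl9 had 15.98, 507 and 27.0 in the SOD1-G85R samples, against the floors of 8.87 and 13.4 and a value of 11.99 in WT. The groups did not overlap in the deposited values of either gene, but they did in implied counts. For Cxcl10 these were 23, 4410 and 17 in SOD1-G85R, against at most 11.2, at most 13.3 and 22 in WT, and for Cxcl9 they were 15, 637 and 19 in SOD1-G85R against at most 11.2, at most 13.3 and 15 in WT. The order outside replicate 2 therefore rested on the scaling between samples, whose step was 0.796 to 1.42 normalized counts in SOD1-G85R and 0.791 to 1.01 in WT. The level in SOD1-G85R replicate 2 was at least 264-fold the WT mean for Cxcl10 and at least 44.4-fold for Cxcl9.

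Xcl1 (lymphotactin) is made by activated CD8 T cells and natural killer cells and draws dendritic cells that carry Xcr1. It had 20.2, 31.1 and 51.1 normalized counts in SOD1-G85R replicates 1, 2 and 3, against the floors of 8.87 and 13.4 and a value of 9.59 in WT. Unlike the other inflammatory ligands, it was not highest in SOD1-G85R replicate 2 in normalized counts. In implied counts the SOD1-G85R samples had 19, 39 and 36, against at most 11.2, at most 13.3 and 12 in WT. Replicate 2 was thus the highest in implied counts, and its order against replicate 3 rested on the scaling between samples. Counting error alone was wide at this level, with an exact Poisson 95% interval of 11.4 to 29.7 for SOD1-G85R replicate 1 and of 6.20 to 21.0 for WT replicate 3.

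Cx3cl1 had 1232, 1377 and 1553 in SOD1-G85R replicates 1, 2 and 3, against 2250, 1903 and 2186 in WT replicates 1, 2 and 3. It averaged 1387 ± 161 in SOD1-G85R and 2113 ± 185 in WT (SD, n = 3 each), or 65.6% of the WT mean. The groups did not overlap, and SOD1-G85R replicate 2 lay between the other SOD1-G85R samples. This signal was far above every floor. In whole-brain RNA, fewer cells that make a transcript and less of it per cell cannot be told apart.

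**Figure D2:**
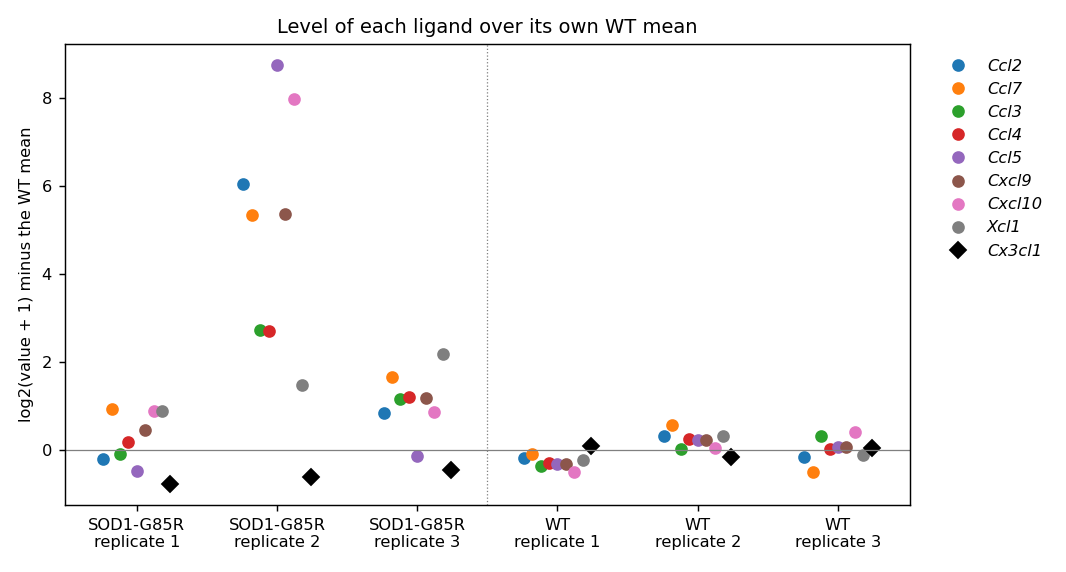
Level of each ligand in each sample, as log2(value + 1) minus the gene's own mean over the 3 WT samples. Black diamonds are Cx3cl1, which is below 0 in all 3 SOD1-G85R samples, and circles are the inflammatory ligands, which reach 8.75 in SOD1-G85R replicate 2.

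Set against the WT mean on the log2(value + 1) scale, which understates the change of low genes, Cx3cl1 was at -0.77, -0.61 and -0.44 in SOD1-G85R replicates 1, 2 and 3. The median over the 8 inflammatory ligands was 0.33, 5.36 and 1.18 in the same samples. The WT samples lay between -0.15 and 0.09 for Cx3cl1 and between -0.30 and 0.25 for the median of the 8. The number of inflammatory ligands above every WT sample was 4, 8 and 7 of 8 in SOD1-G85R replicates 1, 2 and 3. The share of all genes above every WT sample was not counted for each sample. The 133 genes with a median signal under 30, which hold 7 of the 8 ligands, had medians of 0.47, 1.42 and 1.17 in these samples. In replicates 1 and 3 the median of the 8 was thus close to that of low genes in general. Cx3cl1 was thus close to its level in the other SOD1-G85R samples in the sample where the inflammatory ligands were high, at 0.989-fold the mean of replicates 1 and 3.

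The genotypes were compared by limma over the 712 genes that exceeded 20 in at least 3 of the 6 samples, with Benjamini-Hochberg adjustment. Of the 6 ligands among them, 0 passed an adjusted p of 0.05, as did 0 of the 712 genes (0%). At an unadjusted p of 0.05, 1 ligand was higher in SOD1-G85R (Xcl1), against 11.7% of the genes tested, and 1 was lower (Cx3cl1), against 4.63%. Quantile normalization left 0 ligands higher and 0 lower at that level, against 3.09% and 5.06% of the genes, where Xcl1 had a log2 fold change of 0.71. Centring each sample on its median gave 3 higher and 1 lower, against 11.1% and 5.76%. Xcl1 had a log2 fold change (SOD1-G85R minus WT) of 1.52 (SE 0.37, adjusted p = 0.190), and Cx3cl1 one of -0.61 (SE 0.19, adjusted p = 0.224). The median over all tested genes was 0.15, and relative to it Cx3cl1 was at -0.76. After the same centring the median was -0.06 and the Cx3cl1 fold change -0.82, and quantile normalization gave -0.10 and -0.55. Ccl7, Cxcl10 and Xcl1 were under 20 in every WT sample and passed the filter only through SOD1-G85R, so their direction was set by it. This held for 33 of the 712 genes, of which 28 were among the 83 higher at an unadjusted p of 0.05.

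The fold changes of the other inflammatory ligands had wide errors with SOD1-G85R replicate 2 in the fit. The log2 fold change was 3.25 (SE 1.92) for Cxcl10, 2.66 (SE 1.14) for Ccl7, 2.24 (SE 1.56) for Ccl2 and 1.27 (SE 0.69) for Ccl3, with adjusted p from 0.337 to 0.532 by limma. Ccl4, Ccl5 and Cxcl9 did not pass the filter. In a fit of all 770 genes without it, their log2 fold changes were 1.38 (SE 0.63), 2.72 (SE 2.44) and 2.34 (SE 1.25), with adjusted p of 0.360, 0.603 and 0.415 by limma, and 0 of the 770 genes passed, 90 being higher and 30 lower at an unadjusted p of 0.05. Over the 9 ligands the median in that fit was 2.24, with 8 positive, beside a median of 0.19 over all 770 genes.

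Without SOD1-G85R replicate 2 the fold changes of the inflammatory ligands were smaller, apart from that of Xcl1, and spread from -0.30 to 1.54. In the fit of all 770 genes without that sample, Ccl5 had a log2 fold change of -0.30 (SE 0.27), Ccl2 one of 0.32 (SE 0.34), Ccl3 one of 0.54 (SE 0.38) and Ccl4 one of 0.71 (SE 0.34). Ccl5 was at the floor in SOD1-G85R replicates 1 and 3 and in WT replicates 1 and 2. Its value is thus mostly a difference between floors and gives no direction. Ccl7 was at 1.30 (SE 0.36), Xcl1 at 1.54 (SE 0.38), Cxcl10 at 0.87 (SE 0.30) and Cxcl9 at 0.83 (SE 0.30). The last 2 lay close to the median of 0.79 that the 133 genes with a median signal under 30 had in the same fit. Cx3cl1 kept its value, at -0.61 (SE 0.25). By limma, 0 of the 9 ligands passed an adjusted p of 0.05 (1.43% of the 770 genes did), the smallest adjusted p being 0.0687 for Xcl1 and 0.0916 for Ccl7. At an unadjusted p of 0.05, 4 were higher (14.9% of the panel) and 1 was lower (4.29%).

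**Figure D3:**
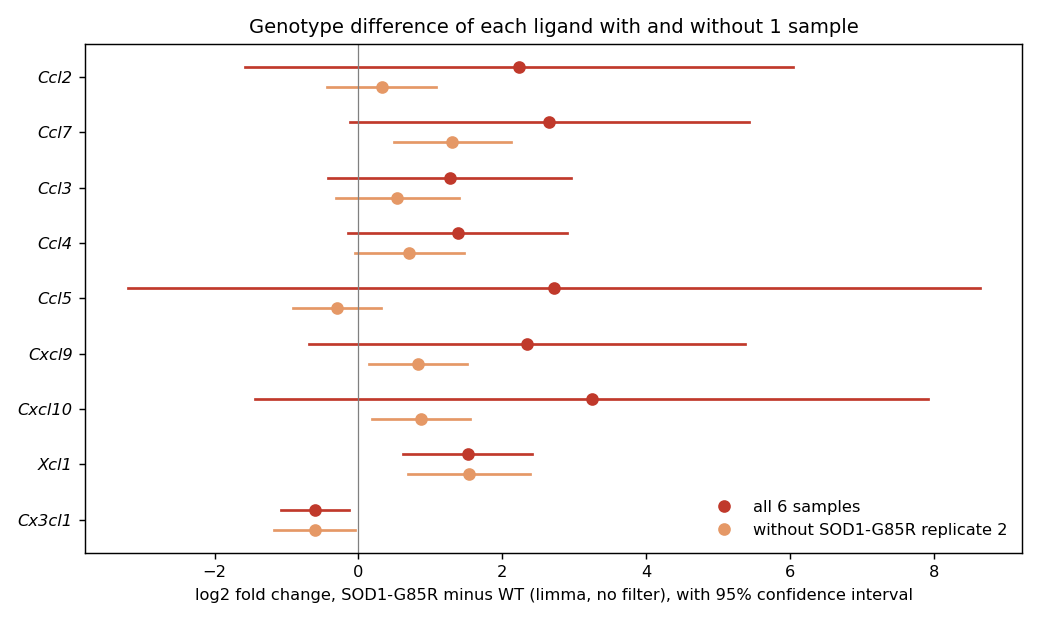
Log2 fold change of each ligand (SOD1-G85R minus WT) from limma over all 770 genes, with its 95% confidence interval, with all 6 samples (red) and without SOD1-G85R replicate 2 (orange). Without that sample Ccl2 lies near 0, as does Ccl5, whose remaining values are mostly at the floor. Xcl1 and Cx3cl1 keep values of 1.54 and -0.61.

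The groups of 3 did not overlap in 4 inflammatory ligands that were higher in SOD1-G85R (Ccl7, Cxcl9, Cxcl10 and Xcl1), against 17.4% of the 770 genes, and in Cx3cl1, which was lower, against 9.22%. Without SOD1-G85R replicate 2 these were the same 5 ligands, against 20.6% and 14.9% of the genes. Low genes as a whole had higher values in SOD1-G85R. Among the 133 genes whose median over the 6 samples was under 30, which hold 7 of the 8 inflammatory ligands, 125 had a positive log2 fold change, with a median of 1.12. The groups did not overlap upwards in 65 of these 133 genes (48.9%), beside 4 of the 7 ligands. With SOD1-G85R replicate 2 left out they did not overlap upwards in 76 of the 133 (57.1%), a share equal to that of the ligands. The median of these genes was 0.79 without SOD1-G85R replicate 2 and 0.27 after quantile normalization. The part of this shift in the low ligands' values was not tested. Exact permutation of the 6 samples gave p = 0.1 for Ccl7, Cxcl9, Cxcl10, Xcl1 and Cx3cl1, two-sided, which is the smallest that 3 against 3 allows. The exact test without SOD1-G85R replicate 2 gave p = 0.1 for Cxcl9, Xcl1 and Cx3cl1, again the smallest possible, and p = 0.2 for Ccl7 and Cxcl10.

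Of the chemokine receptor genes, Ccr2 and Cx3cr1 are described, and by limma neither passed an adjusted p of 0.05, with Ccr2 higher at an unadjusted p of 0.05. Ccr2, the receptor of Ccl2 and Ccl7 on inflammatory monocytes, had 36.2, 235 and 49.7 in SOD1-G85R replicates 1, 2 and 3, against 22.2, 23.1 and 24.0 in WT. The groups did not overlap (log2 fold change 1.67, SE 0.68, adjusted p = 0.301 by limma). Without SOD1-G85R replicate 2 its fold change was 0.85 (adjusted p = 0.0936). Cx3cr1, the microglial receptor of Cx3cl1, had 300.4, 887 and 447 in SOD1-G85R, against 540.3, 457 and 571 in WT. Its log2 fold change was -0.08 (SE 0.41), and -0.50 without SOD1-G85R replicate 2, where both remaining samples lay below WT. Ctss, a protease known to release Cx3cl1 from membranes, had 369, 4927 and 256 in SOD1-G85R, against 608, 400.3 and 553 in WT. It was the 1 measured gene of the list of shedding proteases, and by limma it did not pass with all samples (adjusted p = 0.820) or without SOD1-G85R replicate 2 (adjusted p = 0.191).

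Cytokines known to induce chemokines were measured for 5 of 14 genes, and 0 passed an adjusted p of 0.05 by limma, with 3 of the 5 higher at an unadjusted p of 0.05 (11.7% of the genes tested were). Leaving out SOD1-G85R replicate 2, these counts were again 0 and 3 of 5 (13.2% of the genes). The 3 were Tnf, Il1b and Lta in both fits, and like Xcl1 they reached 20 in no WT sample, which fixed their direction through the filter. Tnf had 22.4, 139 and 29.8 in SOD1-G85R, against the floors of 8.87, 13.4 and 8.05 in WT. Il1b had 24.5, 36.6 and 65.3 in SOD1-G85R, against 10.3, the floor of 13.4 and 14.4 in WT. In normalized counts its order of SOD1-G85R samples was like that of Xcl1, but its implied counts there were 23, 46 and 46. Lta, the lymphotoxin gene, had 33.0, 31.9 and 31.3 in SOD1-G85R, against 13.5, 14.1 and 16.8 in WT, with no excess in replicate 2. Among transcription factors of these pathways, 13 of 14 measured were tested and 0 passed by limma with or without SOD1-G85R replicate 2. At an unadjusted p of 0.05, 1 was higher in each fit (Irf4), and its direction too was set by the filter, with 22.4, 33.4 and 45.5 in SOD1-G85R and 17.4, 19.1 and 16.8 in WT. The 13 genes had a median log2 fold change of 0.34, and of -0.16 without SOD1-G85R replicate 2. Irf7, an interferon-induced regulator, had 14.9, 2577 and 68.2 in SOD1-G85R, against 22.9, 26.2 and 25.6 in WT. It was thus high in the sample with high Cxcl10 and Ccl5, below WT in SOD1-G85R replicate 1 and above it in replicate 3. Nfkb1, an NF-kB subunit, had 150.2, 503 and 237 in SOD1-G85R, against 170.1, 285 and 221 in WT.

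Markers of leukocytes, which make or follow these ligands, mostly exceeded every WT sample in SOD1-G85R replicate 2. They did so for 7 of 7 T cell markers, 9 of 10 cytotoxic and natural killer genes, 4 of 4 B cell genes and 7 of 8 monocyte and neutrophil markers. The exceptions were Kir3dl1, at the floor in all 6 samples, and Cd163, a scavenger receptor of macrophages, which had 24.7 in SOD1-G85R replicate 2 and 27.2 to 53.0 in WT. At least 46.4% of all 770 genes exceeded every WT sample there, the share above all 5 other samples. The exact share was not counted. The 133 genes with a median signal under 30 were also raised there, at a median log2 level of 1.42 over the WT mean. On that scale the medians of these lists were 1.37, 2.36, 2.55 and 2.15, in the order above. In 5, 6, 2 and 6 genes of these lists, in the same order, SOD1-G85R replicate 2 also exceeded the other SOD1-G85R samples, beside 46.4% of the panel. Over 7 T cell markers the summed signal was 148, 417 and 232 in SOD1-G85R replicates 1, 2 and 3, against 79.2 to 107 in WT, where 3 of the 7 were at the floor in every sample. Cd3d, a defining T cell gene, had 20.2, 114 and 28.4 in SOD1-G85R, against the floors of 8.87 and 13.4 and a value of 12.8 in WT. Over 10 cytotoxic and natural killer genes the sum was 167, 790.1 and 298 in SOD1-G85R, against 95.3 to 134 in WT, and 3 were at the floor in every WT sample. Within that list Gzma had 10.7, 166 and the floor of 10.2 in SOD1-G85R, against at most 13.4 in WT, while Prf1 (perforin) had at most 15.9 in any sample. Over 8 monocyte and neutrophil markers the sum was 287 to 2022 in SOD1-G85R and 227 to 277 in WT, with Fcgr1 at 902 in SOD1-G85R replicate 2 and 60.3 to 91.0 in WT. Over 4 B cell genes the sum was 150.2 to 5203 in SOD1-G85R and 165 to 169 in WT, most of it Cd74, an antigen presentation gene that myeloid cells also use. Over 11 microglial genes, Cx3cr1 among them, the sum was 3122, 5325 and 3952 in SOD1-G85R, against 3452 to 5040 in WT. Of the 11, 7 exceeded all 5 other samples in SOD1-G85R replicate 2, beside 46.4% of the panel, and 2 lay below every WT sample there. Tmem119, a microglial surface gene, was among the 7 and had 170.5, 514 and 239 in SOD1-G85R, against 277, 308 and 273 in WT. P2ry12, a gene of resting microglia, was among the 2 and had 476, 302 and 692 in SOD1-G85R, against 739.6, 614 and 1081 in WT. Endothelial markers (5 genes) summed to 1762 to 3554 in SOD1-G85R and 1877 to 2346 in WT. By limma 0 genes of these lists passed an adjusted p of 0.05 with all 6 samples. The T cell regulator Tbx21 and the natural killer receptor genes Kir3dl2 and Cd244 passed without SOD1-G85R replicate 2 (adjusted p = 0.0264 each), against 1.4% of the 712 genes. None of the 3 reached 20 in any WT sample, and their direction was thus fixed by the filter. The part of each cell type in the ligands' values was not tested.

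**Figure D4:**
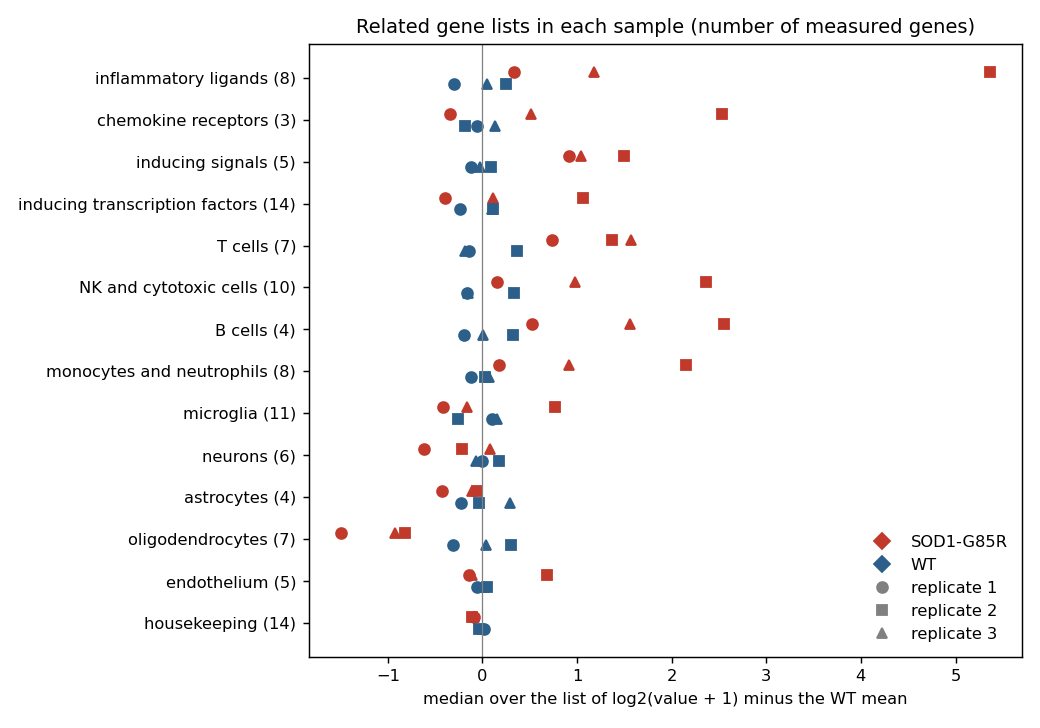
Median over each gene list of log2(value + 1) minus the gene's WT mean, for each sample, with the number of measured genes in brackets. SOD1-G85R replicate 2 (red square) is at 5.36 for the inflammatory ligands, whereas all samples are near 0 for the housekeeping genes.

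Beside Cx3cl1, neuron markers differed among themselves. Slc17a7, the vesicular glutamate transporter of cortical and hippocampal neurons, had 3102, 2753 and 4398 in SOD1-G85R, against 6032, 6656 and 5378 in WT, and Nefl, the neurofilament light chain, had 1618, 1477 and 1821 in SOD1-G85R, against 2501, 2815 and 2051 in WT. Both were lower in all 3 SOD1-G85R samples. Tubb3, a neuronal tubulin, had 8818, 9431 and 9004 in SOD1-G85R, against 8672, 8391 and 7628 in WT, and was higher in all 3. Rbfox3, the gene of NeuN, had 1239, 2816 and 2775 in SOD1-G85R, against 1169.9, 3379 and 2180.5 in WT, and its groups overlapped. By limma 0 of the 6 neuron markers passed an adjusted p of 0.05, 2 (Slc17a7 and Nefl) were lower at an unadjusted p of 0.05 (4.63% of the genes were), and their median log2 fold change was -0.11. In the fit without SOD1-G85R replicate 2, 0 passed, 1 (Slc17a7) was lower at an unadjusted p of 0.05 (5.2% of the genes), and the median was -0.22. Oligodendrocyte markers, which do not include Cx3cl1, were lower in all 7 genes measured, with a median of -1.02, and 0 passed by limma with all 6 samples, while 7 were lower at an unadjusted p of 0.05, beside 4.63% of the genes. Their median was -1.21 without SOD1-G85R replicate 2, where 1 gene passed, Opalin, a gene of oligodendrocyte membranes (log2 fold change -1.71, adjusted p = 0.0264 by limma).

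Genes whose pattern over the 6 samples was most like that of a ligand were found for the 3 ligands above the floor in every sample, by the root mean square difference between log2 profiles centred on their own means. For Cx3cl1 these were Gclc, the catalytic subunit of glutathione synthesis (0.12), the autophagy gene Atg9a (0.14) and Clstn1, a synaptic calsyntenin (0.14), where the median over the tested genes was 0.49. Gclc had 258, 244 and 319.6 in SOD1-G85R, against 418, 344 and 366 in WT. Its groups did not overlap either, but it was picked for likeness to Cx3cl1 in these same samples, so this is no further result. For Ccl2 they were the immunoproteasome gene Psmb8 (0.17), the antiviral gene Rsad2 (0.29) and the complement gene C3 (0.37), against a median of 2.13. Psmb8 had 51.1, 3221 and 109 in SOD1-G85R, against 38.8, 69.4 and 50.3 in WT. For Ccl3 they were Gpr84 (0.15), a receptor of activated myeloid cells, Traf1 (0.23), an NF-kB-induced adaptor, and the granulocyte receptor gene Csf3r (0.24), against a median of 0.94. Gpr84 had 22.4, 154 and 52.6 in SOD1-G85R, against 17.4, 22.1 and 21.6 in WT. Without SOD1-G85R replicate 2, the genes named for Cx3cl1 ranked 3, 6 and 4 of 706, those for Ccl3 ranked 3, 17 and 2, and those for Ccl2 ranked 7, 130 and 68, so that the likeness of Rsad2 and C3 to Ccl2 rests on that sample.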

How the data were processed

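RNA from 3 SOD1-G85R and 3 WT whole-brain samples was hybridised on a NanoString panel, per the labels' protocols. The authors deposited 1 signal value per gene and sample. The labels name no software, scaling genes or background rule. Of each sample's values above its floor and under 150, 100% were whole multiples of 1 step within 0.1 count. A floor per sample bars count models, so values were tested as log2(value + 1) with limma 3.58.1 in R 4.3.3 (lmFit, eBayes, two-sided, no covariate, Benjamini-Hochberg over all genes tested), after keeping 712 of 770 genes above 20 in at least 3 samples. The fit was tested on simulated data. No 2 samples agreed within counting noise (lowest chi-square per degree of freedom 23.1). Members and lists were chosen with earlier results of these data known. Text names the 9 ligands, chemokine receptors, up to 4 genes of each other list (smallest unadjusted p, or defining markers) and the 3 genes most like each ligand above the floor in every sample. Nfkb1, Uty, Kdm5d, Cd163 and Kir3dl1 were named after their values were seen, and some genes that the rule allows are not reported here. Genes were matched to RefSeq GRCm38.p6 by symbol, 9 of 9 ligands, and sequences are RefSeq's. Alternatives were each replicate left out, other scalings, filters, pseudocounts, a common floor of 20, the replicate block, another variance model and sample weights. Chosen only after seeing the data were the likeness ranks and exact tests that leave out SOD1-G85R replicate 2. Figures used matplotlib 3.10.9.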

Additional observations from a re-analysis of the deposited data

How the results depend on the processing

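Of 192 other settings of a ligand or receptor, 189 kept both direction and side of the threshold. Leaving out 1 replicate at a time, the fold change of Ccl5 ran from -0.30 (without SOD1-G85R replicate 2) to 4.31 (without SOD1-G85R replicate 1), and that of Cx3cr1 from -0.50 (without SOD1-G85R replicate 2) to 0.28 (without SOD1-G85R replicate 1). The Ccl5 value of -0.30 is mostly a difference between floors and gives no direction. With sample weights, whose estimation did not converge, Xcl1 passed (log2 fold change 1.94, limma adjusted p = 0.0186), so that 1 ligand was called, with 12 genes of the inducer, protease and marker lists and 52 over the panel. The cause was not tested. The fits that each left out 1 replicate gave 0 to 10 called genes over the panel and 0 to 4 in those lists. The highest of each was without SOD1-G85R replicate 2, and 0 ligands and 0 receptors were called each time. Over all its settings the fold change of Cx3cl1 ran from -0.82 to -0.53 (adjusted p 0.0974 to 0.671), and that of Xcl1 from 0.65 to 1.94, with the lowest at a common floor of 20. Quantile normalization gave 0.24 for Ccl3 and 0.40 for Ccl4. With the replicate block the fold changes were as in the fit without it, 0 ligands passed, and the adjusted p was 0.167 for Cx3cl1 and 0.143 for Xcl1. The main fit did not take the numbers as pairs. Deviations of same-numbered samples correlated at 0.23, 0.088 and 0.0999, and those of differently numbered samples at -0.32 to 0.19. These values do not settle whether the numbers mark pairs. On values over each gene's WT mean, the group difference of Cx3cl1 minus the median of the 8 inflammatory ligands was -2.90 (SE 1.56), -2.02 after quantile normalization and -2.36 at a common floor. Leaving out 1 replicate at a time, which was added after seeing the data, it ran from -3.80 to -1.36, and this last value (SE 0.34) was without SOD1-G85R replicate 2. Without that sample Cx3cl1 was at -0.61, beside a median of 0.79 over the 133 genes with a median signal under 30. The part of this shift of low genes in the difference was not tested. With a filter above 50 in 3 samples, Ccl2, Ccl3, Ccl7, Cxcl10, Xcl1 and Ccr2 gave no value. Levels near the floor limit what can be said of 7 of the 8 inflammatory ligands outside SOD1-G85R replicate 2.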
